A study of Mus musculus with 6 samples.

Results

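The genes that encode the subunits of heterotrimeric G proteins and the regulators of G protein signalling (RGS proteins) were examined in mouse hepatic stellate cells exposed to forskolin. The members were the rows of the deposited table whose gene symbol is that of an alpha (Gna), beta (Gnb1 to Gnb5), gamma (Gng) or numbered Rgs gene. Of 24940 rows in the table, 54 were members, made up of 16 alpha, 5 beta, 12 gamma and 21 Rgs genes. The rule reads the symbol and no expression value, but the gene group was picked with earlier results of these data known.

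A heterotrimeric G protein links a receptor at the cell surface to enzymes and channels inside the cell. The receptor loads the alpha subunit with GTP, and the alpha subunit and the beta-gamma dimer then act on separate effectors. Stimulatory alpha subunits activate adenylyl cyclase, inhibitory ones restrain it, those of the Gq class activate phospholipase C beta, and those of the G12 class act on guanine nucleotide exchange factors. RGS proteins speed up the hydrolysis of GTP by alpha subunits and so shorten the signal. In stellate cells, which store vitamin A in the healthy liver, contraction and growth are driven by receptors of these classes, such as those for endothelin and angiotensin.

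The forskolin group held 3 libraries, named A, B and C, from primary stellate cells of wild-type female C57BL/6JBomTac mice that received 5 µM forskolin 2 days after isolation. Forskolin, a plant diterpene, activates adenylyl cyclase directly and so raises cyclic AMP without a receptor or a stimulatory G protein. The vehicle group held 3 libraries, also named A, B and C, from the same kind of cells given an equal volume of dimethyl sulfoxide. In both groups the medium was replaced after 3 h and polyadenylated RNA was taken 21 h later, at 24 h. Whether each library stands for its own animal or culture is not stated in the labels. Every p-value therefore refers to the scatter among the libraries themselves, and that scatter may be technical.

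Total counts ranged from 10890193 to 12954310 in the forskolin libraries and from 13001358 to 15090262.5 in the vehicle libraries, so depth moved with the group, and its part in the results was not tested beyond a fit with library size as a covariate. Members held between 0.376% and 0.391% of the counts of a forskolin library, against 0.382% to 0.392% of a vehicle library. The 10 stellate cell markers listed for this work (among them Lrat, Hgf, Des and Pdgfrb) were all present. Of them 5 were higher and 4 lower, where 24.8% of all genes tested were higher and 25.1% lower. They summed to 3124 to 3209 CPM (counts scaled to a common library size) with forskolin and 2810 to 2979 CPM with vehicle. All 9 lymphocyte markers were under 1 CPM in both groups. The 10 sinusoidal endothelial markers summed to 17.5 to 18.8 CPM with forskolin and 20.1 to 22.8 CPM with vehicle, 1 of the 5 tested being higher (Stab2) and 3 lower (Kdr, Lyve1 and Tek). The 4 platelet markers summed to 15.4 to 16.7 CPM with forskolin and 12.9 to 16.8 CPM with vehicle, 1 of the 2 tested being higher (Itga2b) and 0 lower. Ppbp was not tested, and its forskolin libraries all lay below its vehicle libraries. The 10 hepatocyte markers summed to 148 to 210 CPM with forskolin and 132 to 134 CPM with vehicle, nearly all of it Ass1, with Alb at 0.0252 CPM and 0. Of the 2 hepatocyte markers tested, 1 was higher (Ass1) and 0 lower. In bulk RNA, fewer cells of a type and less RNA per cell cannot be told apart.

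A day after the forskolin pulse, 16 of the 35 members with enough counts to be tested differed from vehicle, 5 being higher and 11 lower (edgeR quasi-likelihood test, Benjamini-Hochberg adjusted p under 0.05). This share of 45.7% lies near that of all 13357 genes tested, of which 49.9% passed, 24.8% being higher and 25.1% lower. The groups did not overlap for 16 of the 35 members, or 45.7%, against 57.2% of all genes tested. With libraries scaled by their size alone, 8 members were higher and 9 lower. Tested against a 1.5-fold change, a threshold chosen after the data were seen, 7 of the 35 members (20.0%) passed, 2 higher and 5 lower, where 7.49% of all genes passed, 3.16% higher and 4.33% lower. The 2 that rose were Gna14 and Rgs2, and the 5 that fell were Rgs4, Gnai1, Rgs3, Rgs12 and Rgs16.

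**Figure D1:**
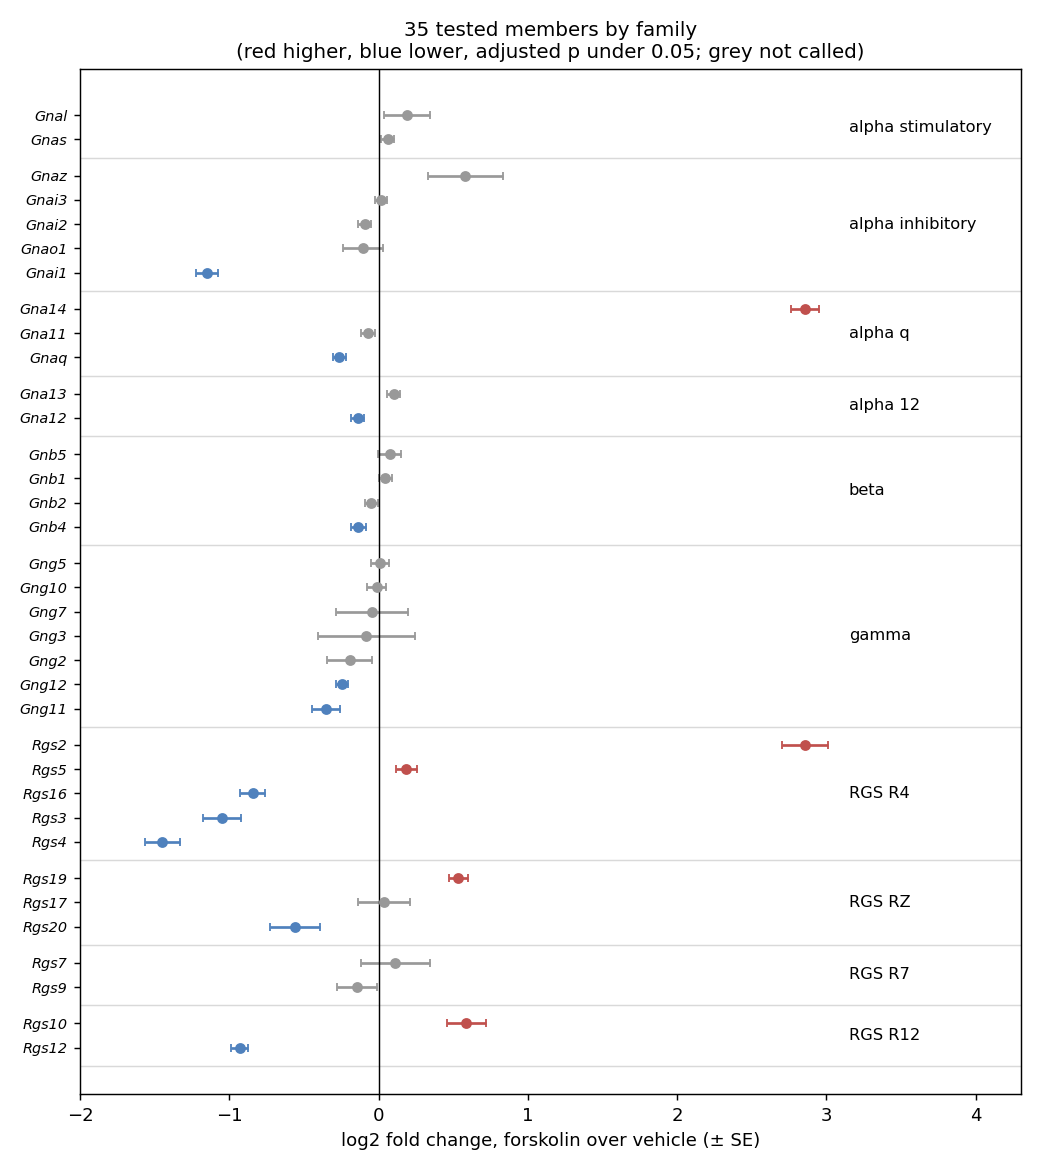
Log2 fold change (x axis, forskolin over vehicle, with its SE) of each of the 35 tested members (y axis), grouped by family, with called members in red (higher) or blue (lower) and the rest in grey. Gna14 at 2.86 and Rgs2 at 2.85 stand far to the right, and Rgs4 at -1.45 is the leftmost point.

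Among the alpha subunit genes the largest change was that of Gna14. It encodes a member of the Gq class, which activates phospholipase C beta. Gna14 stood at 51.9, 56.8 and 61.9 CPM in forskolin libraries A, B and C, against 7.82, 8.43 and 7.24 CPM in vehicle libraries A, B and C. The groups were far apart, the lowest forskolin library lying above every vehicle library. Gna14 rose 7.24-fold (log2 fold change 2.86, SE 0.0958, edgeR adjusted p = 6.33e-14).

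The other genes of the Gq class did not follow it. Gnaq, which encodes the founding member of the class, had 112, 117 and 109 CPM with forskolin A, B and C, against 138, 132 and 137 CPM with vehicle A, B and C. Every forskolin library was below every vehicle library, and Gnaq fell by 0.26 in log2 terms (SE 0.0459, edgeR adjusted p = 1.17e-04). Gna11, its close relative, averaged 189 ± 10.3 CPM with forskolin and 198 ± 5.48 CPM with vehicle (SD, n = 3 each), groups that overlapped (edgeR adjusted p = 0.224). Gna15, known as the alpha subunit of blood cells, had at most 7.5 counts in any library and was not tested.

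Levels of different genes were compared per kilobase of exon. On that scale Gna14 made up 17.7% ± 0.777 of the summed Gq-class level with forskolin and 2.65% ± 0.199 with vehicle (SD, n = 3 each). Gnaq made up 21.2% ± 1.30 with forskolin and 27.5% ± 0.963 with vehicle, and Gna11 held the largest share in both groups, 61.1% ± 0.572 and 69.6% ± 0.857. The summed level of the class was 95.1 ± 4.45 CPM per kilobase with forskolin and 87.6 ± 1.35 with vehicle. Gna14 thus came close to Gnaq in level with forskolin and was a minor transcript of the class with vehicle.

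Among the inhibitory alpha subunits only Gnai1 of 5 tested genes passed, or 20.0% against 49.9% of all genes tested. Gnai1 stood at 29.3, 25.8 and 26.1 CPM with forskolin A, B and C, against 57.4, 59.4 and 63.1 CPM with vehicle A, B and C. The groups were clearly separate, and Gnai1 fell by 1.15 in log2 terms (SE 0.0713, edgeR adjusted p = 2.22e-10), a level 2.22-fold higher in vehicle. The far more abundant paralogues did not pass. Gnai2 averaged 417 ± 18.03 CPM with forskolin and 445 ± 12.9 CPM with vehicle (edgeR adjusted p = 0.085), and Gnai3 averaged 285 ± 4.14 and 282 ± 10.6 CPM (edgeR adjusted p = 0.778). Without forskolin C the Gnai2 difference passed (log2 fold change -0.13, edgeR adjusted p = 0.0194). Per kilobase, Gnai1 therefore held 2.92% ± 0.243 of the inhibitory class with forskolin and 6.01% ± 0.195 with vehicle. Gnao1, the alpha subunit best known from neurons, and Gnaz, which encodes a pertussis toxin-resistant relative, were present at 10.3 and 3.87 CPM with forskolin and 11.02 and 2.56 CPM with vehicle, and neither passed (edgeR adjusted p = 0.549 and 0.0647), although Gnaz did with library size alone, with no filter and without forskolin B. The genes Gnat1, Gnat2 and Gnat3, which serve vision and taste, had at most 14.5 counts in a library and were not tested.

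**Figure D2:**
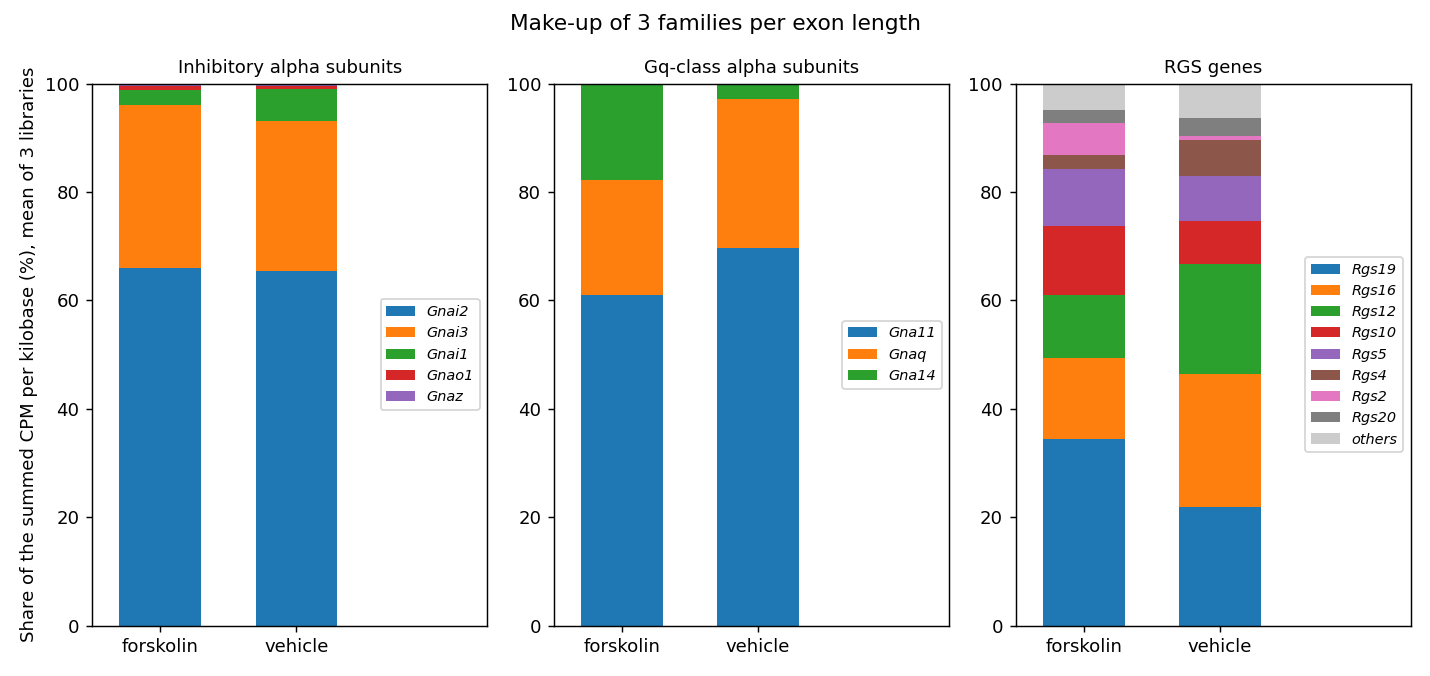
Share of each gene in the summed CPM per kilobase of exon (y axis, percent, mean of 3 libraries without error bars) for inhibitory alpha, Gq-class alpha and Rgs genes, with forskolin to the left of vehicle. The Gna14 segment is 17.7% with forskolin and 2.65% with vehicle, and Rgs19 takes 34.4% of the Rgs level with forskolin and 21.8% with vehicle.

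The stimulatory alpha subunit, which carries receptor signals to adenylyl cyclase, was not called. Gnas stood at 535, 507 and 543 CPM in forskolin A, B and C, against 510, 483 and 527 CPM in vehicle A, B and C, so the groups overlapped (log2 fold change 0.06, SE 0.0442, edgeR adjusted p = 0.276). With library size alone Gnas passed (log2 fold change 0.10, edgeR adjusted p = 0.0365). Only 67.7% of the 50-base stretches of the Gnas transcript occur in no other annotated gene, because an antisense transcript covers 37.6% of its exons, and the labels do not state that strand was kept. RefSeq lists several starts for Gnas, with promoter windows between 174284070 and 174330055 on chromosome 2, and the counted row begins at 174327768. Transcripts from the different starts were not told apart. Gnal, the olfactory stimulatory subunit, averaged 6.81 ± 0.408 CPM with forskolin and 5.95 ± 0.573 CPM with vehicle (edgeR adjusted p = 0.331), with 14.9% of its exons overlapped by Mppe1 on the other strand. Of the G12 class, Gna12 fell by 0.14 on the log2 scale, averaging 135 ± 5.43 CPM with forskolin and 149 ± 3.43 CPM with vehicle (edgeR adjusted p = 0.0154). That call was lost with library size alone (adjusted p = 0.0719), without forskolin B (0.0927) and without vehicle C (0.0837), and 13.3% of its exons overlap Amz1 on the other strand. Gna13 averaged 234 ± 4.91 CPM with forskolin and 218 ± 10.4 CPM with vehicle (edgeR adjusted p = 0.0674), and it passed under 5 of 14 alternative settings, among them library size alone (adjusted p = 0.0120) and leaving out forskolin C (0.0395) or vehicle B (0.0246).

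Beta and gamma subunits, which form the dimer that anchors and escorts the alpha subunit, showed log2 fold changes of small size. Gnb1, the most counted beta subunit gene, averaged 529 ± 23.0 CPM with forskolin and 513 ± 18.5 CPM with vehicle, and Gnb2 averaged 270 ± 10.5 and 280 ± 8.68 CPM (edgeR adjusted p = 0.433 and 0.359). Of the 4 beta genes tested only Gnb4 passed, where 49.9% of all genes tested passed and 25.1% were lower. Gnb4 fell by 0.14 on the log2 scale (edgeR adjusted p = 0.026). It had 101, 98.7 and 107 CPM in forskolin A, B and C, against 111, 110 and 116 CPM in vehicle A, B and C. The Gnb4 call was lost under 5 of 14 alternative settings, which were DESeq2, library size alone, library size as a covariate, and leaving out forskolin B or vehicle C. Gnb5, which pairs with RGS proteins of the R7 family in place of a gamma subunit, averaged 39.1 ± 3.61 CPM with forskolin and 37.2 ± 1.40 CPM with vehicle (edgeR adjusted p = 0.446).

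Of 7 tested gamma subunit genes, 2 fell and none of the other 5 passed, a share of 28.6% against 49.9% of all genes tested. Gng12, the gamma gene with the most counts, stood at 384, 379 and 393 CPM in forskolin A, B and C, against 464, 445 and 460 CPM in vehicle A, B and C. No forskolin library reached the lowest vehicle library, and Gng12 fell by 0.24 (SE 0.0398, edgeR adjusted p = 5.45e-05). Gng11 stood at 21.8, 18.1 and 22.2 CPM with forskolin A, B and C and at 25.5, 27.8 and 25.6 CPM with vehicle A, B and C, and fell by 0.35 (edgeR adjusted p = 0.00435). With library size as a covariate its adjusted p was 0.0526. Gng5 averaged 53.2 ± 1.62 CPM with forskolin and 52.9 ± 1.52 CPM with vehicle, and Gng10 averaged 60.4 ± 4.08 and 60.9 ± 4.32 CPM (edgeR adjusted p = 0.915 and 0.881). These counts are uncertain, since 69.9% of Gng5 stretches and 21.1% of Gng10 stretches are unique, Gng5 having pseudogenes and Gng10 sharing exons with a second annotated gene. For Gng2 and Gng3 the share is 77.3% and 78.1%. Gng2, Gng3 and Gng7 were at 1.10 to 9.77 CPM with forskolin and 1.16 to 11.2 CPM with vehicle, and none of them passed, although Gng2 did without forskolin C.

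Rgs genes were 5 of the 7 members past 1.5-fold. Of 12 tested Rgs genes 9 passed, 4 being higher and 5 lower, or 75.0% against the 49.9% of all genes. In the test against 1.5-fold 5 of the 12 passed, or 41.7% against 7.49% of all genes. Among the 23 tested subunit genes 7 passed at adjusted p under 0.05 (30.4%). The median absolute log2 fold change was 0.57 over the 12 Rgs genes, 0.10 over the 23 subunit genes and 0.22 over all genes tested. These are counts over small lists, and no test compared them.

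**Figure D3:**
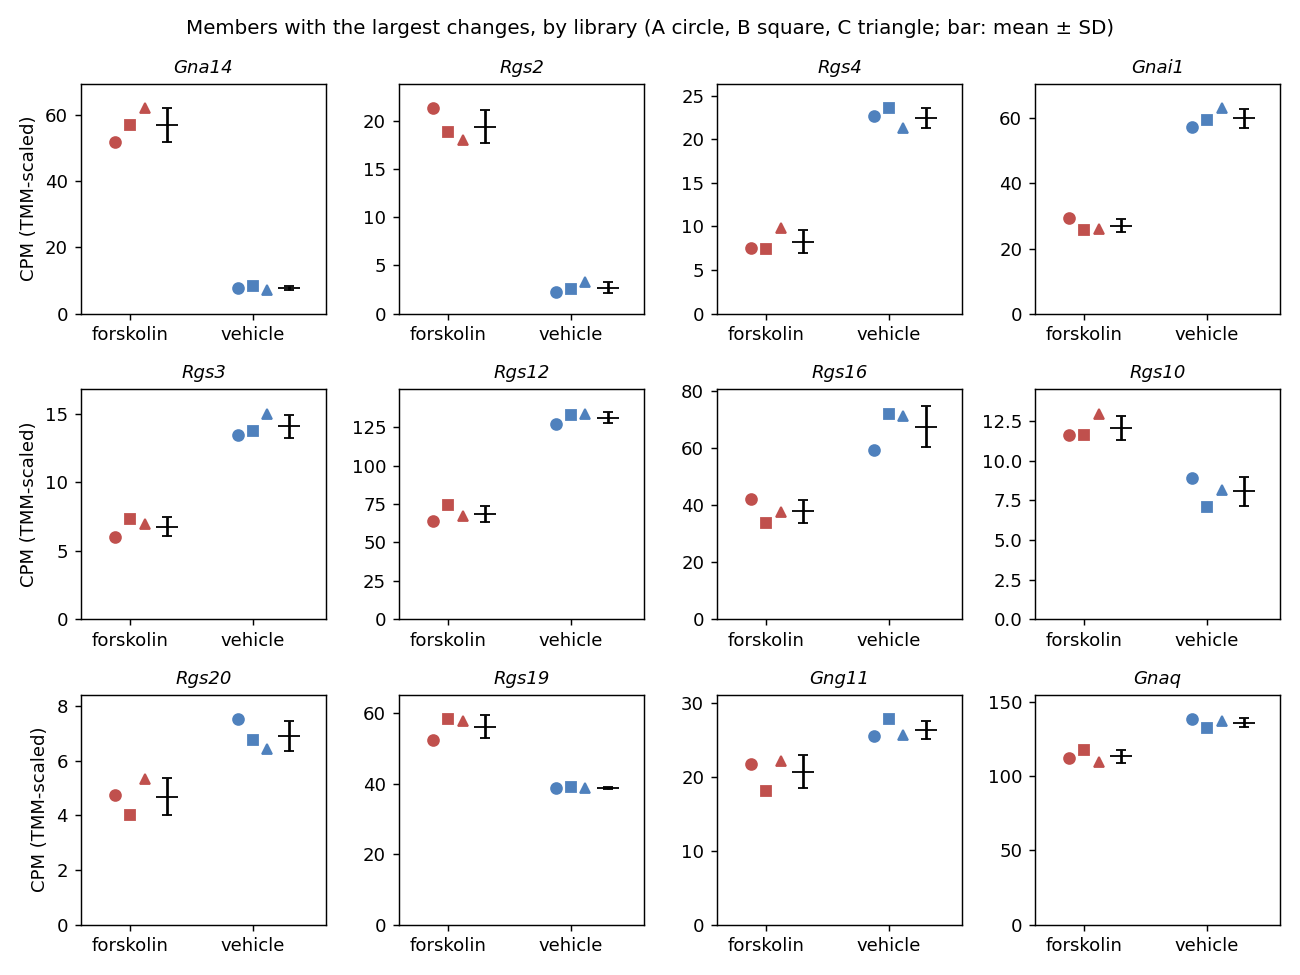
CPM (y axis, from 0) of the 12 members with the largest called changes in each forskolin library (left, red) and vehicle library (right, blue), with the mean and SD beside the points. In all 12 panels the groups are separate, and the groups of Gna14 (51.9 to 61.9 against 7.24 to 8.43 CPM) and Rgs2 (18.1 to 21.3 against 2.21 to 3.30 CPM) differ most as a ratio, each panel having its own axis.

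The R4 family, mostly small RGS proteins that consist of little more than the RGS domain, moved in both directions. Rgs2, whose product prefers alpha subunits of the Gq class, stood at 21.3, 18.9 and 18.1 CPM in forskolin A, B and C, against 2.21, 2.54 and 3.30 CPM in vehicle A, B and C. The vehicle values rest on 30, 38.5 and 42 counts. Rgs2 rose 7.23-fold (log2 fold change 2.85, SE 0.155, edgeR adjusted p = 3.39e-11).

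Rgs4, a regulator of Gi and Gq alpha subunits, went the other way. It had 7.56, 7.40 and 9.77 CPM with forskolin A, B and C, against 22.6, 23.6 and 21.2 CPM with vehicle A, B and C. No library of one group came near the other, and Rgs4 fell by 1.45 in log2 terms (SE 0.1196, edgeR adjusted p = 1.17e-08), which is 2.73-fold higher in vehicle. Rgs3 had 6.01, 7.32 and 6.98 CPM with forskolin A, B and C, against 13.5, 13.8 and 15.03 CPM with vehicle A, B and C, and fell by 1.05 (SE 0.129, edgeR adjusted p = 2.08e-06). Of the Rgs3 stretches 67.4% are unique, the others being shared with a gene model named Gm5763. Rgs16, also a regulator of Gi and Gq signals, had 42.1, 33.7 and 37.8 CPM with forskolin A, B and C, against 59.4, 72.1 and 71.4 CPM with vehicle A, B and C. The Rgs16 groups did not overlap, and it fell by 0.84 (SE 0.0841, edgeR adjusted p = 1.48e-07), with 10.1% of its exons under an antisense gene model.

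Rgs5, used as a marker of pericytes, was slightly higher. It stood at 48.8, 44.1 and 45.3 CPM in forskolin A, B and C, against 39.9, 43.2 and 38.1 CPM in vehicle A, B and C, a narrow gap, and it rose by 0.19 (SE 0.0699, edgeR adjusted p = 0.0351). The call was lost under 5 of 14 alternative settings, which were DESeq2 (adjusted p = 0.0864), library size as a covariate (0.22), and leaving out forskolin A (0.0984), vehicle A (0.0961) or vehicle C (0.15). Within the R4 family the summed level per kilobase was 38.7 ± 2.66 CPM with forskolin and 51.5 ± 3.44 CPM with vehicle. Rgs2 made up 16.7% ± 1.00 of it with forskolin and 1.74% ± 0.313 with vehicle, while Rgs16 made up 41.95% ± 1.78 and 56.4% ± 2.47.

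Vascular smooth muscle markers were mostly lower, while of the 5 tested R4 genes 3 fell and 2, Rgs2 and Rgs5, rose. Of the 9 markers 8 were lower and 0 higher, where 25.1% of all genes tested were lower and 24.8% higher. The markers summed to 1320 to 1459 CPM with forskolin and 1691 to 1721 CPM with vehicle. Some of them, such as Acta2 and Des, are also genes of cultured stellate cells, and their part in the Rgs results was not tested. None of the 9 was at 0.

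In the RZ family, whose products act on Gi and Gz alpha subunits, the members diverged. Rgs19 had 52.4, 58.3 and 57.8 CPM with forskolin A, B and C, against 38.6, 39.1 and 38.8 CPM with vehicle A, B and C. Vehicle values were tight and all below forskolin, and Rgs19 rose by 0.53 (SE 0.0640, edgeR adjusted p = 1.54e-06). Rgs20 had 4.73, 4.001 and 5.34 CPM with forskolin A, B and C, against 7.52, 6.76 and 6.45 CPM with vehicle A, B and C, and fell by 0.56 (SE 0.168, edgeR adjusted p = 0.0095). The Rgs20 call did not hold once library size was a covariate (adjusted p = 0.0735) and without forskolin B (0.0544). Rgs17 averaged 5.13 ± 0.528 CPM with forskolin and 5.01 ± 0.541 CPM with vehicle (edgeR adjusted p = 0.87).

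The R12 family split as well. Rgs12, a large protein with further domains that bind inactive Gi alpha subunits and small GTPases, had 64.3, 74.3 and 67.5 CPM with forskolin A, B and C, against 127, 133 and 134 CPM with vehicle A, B and C. The groups were far apart, and Rgs12 fell by 0.93 (SE 0.0548, edgeR adjusted p = 1.05e-10), with 8.5% of its exons under an antisense gene model. Rgs10, a small member known from immune cells and neurons, had 11.7, 11.6 and 12.97 CPM with forskolin A, B and C, against 8.92, 7.09 and 8.18 CPM with vehicle A, B and C. It rose by 0.59 (SE 0.132, edgeR adjusted p = 0.00118), which did not pass once library size was a covariate (adjusted p = 0.0748). Macrophage markers were measured beside it, since Rgs10 is also a gene of immune cells. Their summed level was 50.8 to 56.2 CPM with forskolin and 46.4 to 47.4 CPM with vehicle over 14 markers. Of the 4 markers tested 2 rose and 1 fell, where 49.9% of all genes tested passed. Cd68 and Csf1r rose (log2 fold changes 0.50 and 0.47), Lyz2 fell (-1.36), and Cd14 was not called. The summed level came from these 4, the other 10 being under 1 CPM in both groups. Marco was at 0 in every library, and Clec4f and Vsig4 were at 0 in the forskolin libraries. Their part in the Rgs10 result was not tested.

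Of the R7 family, which works as dimers with the Gnb5 product, Rgs7 and Rgs9 were tested and did not pass. Rgs9 averaged 10.2 ± 1.65 CPM with forskolin and 11.3 ± 0.596 CPM with vehicle (edgeR adjusted p = 0.384), and Rgs7 averaged 2.77 ± 0.370 and 2.55 ± 0.285 CPM (edgeR adjusted p = 0.718). Summed over all 21 Rgs genes, the level per kilobase was 109 ± 2.25 CPM with forskolin and 118 ± 2.82 CPM with vehicle. Rgs19 was the largest contributor with forskolin (34.4% ± 1.80, against 21.8% ± 0.427 with vehicle), and Rgs16 with vehicle (14.98% ± 1.72 with forskolin and 24.6% ± 2.03 with vehicle).

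The largest changes were not among the most abundant members. Per kilobase, the 10 highest members were Gnai2, Gnb2, Gnb1, Gnas, Gng5, Gng12, Gnai3, Gna12, Gna11 and Gng10. The places of Gnas, Gng5 and Gng10 are uncertain, since 67.7%, 69.9% and 21.1% of their 50-base stretches are unique. Gnai2 led with 193 ± 8.32 CPM per kilobase with forskolin and 205 ± 5.97 with vehicle, followed by Gnb1 and Gnb2, which lay within the spread of each other at 169 ± 7.35 and 165 ± 6.42 with forskolin and 164 ± 5.92 and 170 ± 5.28 with vehicle. The log2 fold changes of these 10 lay between -0.24 and 0.06, and 2 of them passed, Gng12 and Gna12. Among the other 25 tested members 14 passed, and the log2 fold changes ran from -1.45 to 2.86. Over all genes tested 49.9% passed, and how level relates to change over all genes was not examined.

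**Figure D4:**
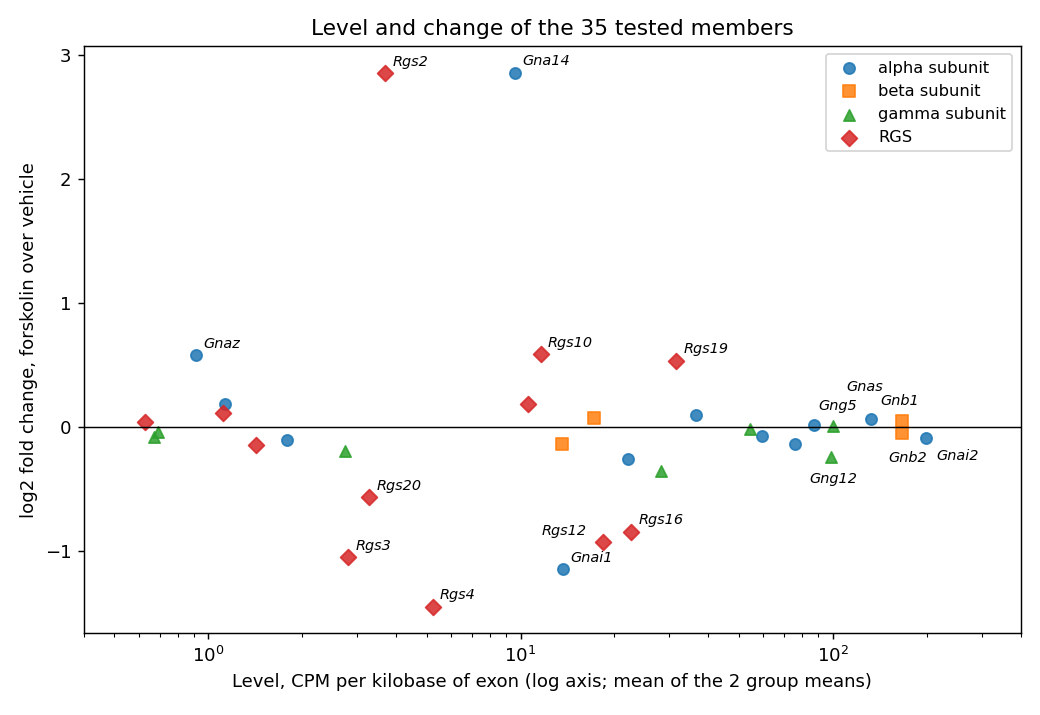
Log2 fold change (y axis, forskolin over vehicle) against the level in CPM per kilobase of exon (x axis, log scale, mean of both group means) for the 35 tested members, with a symbol for each subunit class. Points on the right, from Gna11 to Gnai2, lie near 0, and Gna14, Rgs2, Rgs4, Gnai1 and Rgs3 lie at lower levels.

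The remaining 19 members had too few counts to be tested, so the 35 tested are not all members. Of these 19, 5 were at 0 in every library (Gngt1, Gngt2, Rgs13, Rgs18 and Rgs21), and a count of 0 allows up to 3 counts over a group, or 0.0824 CPM with forskolin and 0.0728 CPM with vehicle, counting error only. Rgs18 is known from platelets and Rgs13 from lymphocytes. Gnb3 had 0.5 counts in 1 library. Rgs1, a gene of lymphocytes, had 0 counts with forskolin and 1 count in each vehicle library, which is within that allowance. Gng4 had 7.5, 11 and 7 counts in the forskolin libraries, against 1, 5 and 3 in the vehicle libraries, a ratio of 3.14 with a 95% exact binomial interval of 1.42 to 7.66 that covers counting error only. Rgs8, which belongs to the R4 family, had 10 counts over the forskolin libraries and 27 over the vehicle libraries (ratio 0.419, interval 0.181 to 0.894). By library A, B and C these were 4, 1 and 5 counts with forskolin and 15, 6 and 6 with vehicle. The intervals of Gnat2 (0.512 to 1.67), Gng13 (0.21 to 1.4) and Gng8 (0.517 to 1.76) included a ratio of 1. Those of Rgs11 (0.267 to 1.14) and Rgs6 (0.71 to 4.61) did so as well. No interval was computed for the rest, among them Rgs14 and Rgs22, which had at most 2 and 3.5 counts in a library.

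Several members lie next to each other in the genome. There were 12 pairs of consecutive members less than 250 kb apart on mm10, and in 3 of them both genes were tested. Gnaq (chromosome 19, 16132831 to 16387453) ends 48.2 kb before Gna14 (16435667 to 16610818), and it fell while Gna14 rose. Rgs5 (chromosome 1, 169655501 to 169695813) lies 45.7 kb from Rgs4 (169741477 to 169747642), and their log2 fold changes were 0.19 and -1.45. Rgs2 (chromosome 1, 143999338 to 144004149) stands at the edge of a stretch of 776 kb that also holds Rgs13, Rgs1, Rgs21 and Rgs18. Of these 5 genes Rgs2 alone had enough counts to be tested. Rgs16 (chromosome 1, 153740353 to 153745468) follows Rgs8 after 42.7 kb. Each of the 3 Gnai genes has a Gnat gene beside it, at 5.84 kb for Gnai3 and Gnat2, 39.1 kb for Gnai2 and Gnat1, and 245 kb for Gnai1 (chromosome 5, 18265135 to 18360413) and Gnat3. In each pair the Gnat gene was not tested.

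Promoters of the members that changed most are shown because cyclic AMP acts on genes partly through factors of the CREB family, which bind the cyclic AMP response element. Sequences are those of RefSeq on GRCm38.p6, from 250 bases before to 50 bases after the annotated start, 5′ to 3′ on the strand of the gene, and 40 of the 54 members matched the table by symbol. Capitals mark the short motif TGACG or its reverse complement CGTCA.
Rgs2, chr1:144004100-144004399, minus strand: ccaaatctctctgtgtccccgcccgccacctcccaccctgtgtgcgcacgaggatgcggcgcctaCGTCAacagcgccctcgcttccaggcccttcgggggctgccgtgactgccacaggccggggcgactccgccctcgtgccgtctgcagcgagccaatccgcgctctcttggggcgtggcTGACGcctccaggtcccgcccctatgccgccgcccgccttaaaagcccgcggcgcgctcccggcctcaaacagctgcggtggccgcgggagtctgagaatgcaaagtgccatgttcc
Rgs4, chr1:169747593-169747892, minus strand: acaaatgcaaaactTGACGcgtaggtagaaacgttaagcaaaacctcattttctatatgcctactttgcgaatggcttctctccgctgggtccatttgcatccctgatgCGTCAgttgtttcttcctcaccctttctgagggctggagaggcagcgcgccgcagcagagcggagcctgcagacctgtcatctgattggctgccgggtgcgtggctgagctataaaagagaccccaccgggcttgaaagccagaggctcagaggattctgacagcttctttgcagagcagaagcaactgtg
Gna14, chr19:16435417-16435716, plus strand: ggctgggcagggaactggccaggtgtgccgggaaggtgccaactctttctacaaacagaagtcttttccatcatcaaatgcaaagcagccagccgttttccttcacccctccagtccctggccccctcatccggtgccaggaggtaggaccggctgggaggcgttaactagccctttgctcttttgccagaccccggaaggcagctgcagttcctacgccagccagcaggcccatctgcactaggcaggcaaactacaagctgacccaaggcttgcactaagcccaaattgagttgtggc

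The Rgs2 promoter has short motifs 185 and 67 bases before the start, and the Rgs4 promoter has them 236 and 141 bases before it, so a gene that rose and a gene that fell each hold 2. The Gna14 promoter holds none in this window. Among the 40 members with a promoter, 11 (27.5%) had TGACG on either strand in at least 1 of their promoter windows, against 23.0% of the 27025 genes of the promoter table. Among the 29 tested members with a promoter 8 (27.6%) had it, against 35.1% of the 10375 tested genes with a promoter. The full palindrome TGACGTCA, which contains the short motif on both strands, was in 0 of the 40, against 2.03% of the table. It was in 0 of the 29 tested members, against 3.57% of tested genes. At such low shares, lists of 29 or 40 genes are too short for a count of 0 to show a difference. A match describes the letters only, and its absence says nothing about the binding of a factor.

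Genes that work beside the members were described from 4 lists. Of receptor kinases and arrestins, which switch off receptors, 3 of 8 tested rose and 0 fell, that is 37.5% called against 49.9% of all genes, with a median log2 fold change of 0.13 against 0.01 over all genes tested. Arrb1, the gene for beta-arrestin 1, had 107, 135 and 138 CPM with forskolin A, B and C, against 81.2, 75.8 and 74.2 CPM with vehicle A, B and C (log2 fold change 0.72, edgeR adjusted p = 2.3e-07). The receptor kinase genes Grk5 and Grk2 averaged 245 and 151 CPM with forskolin, against 200 and 135 CPM with vehicle, and rose by 0.29 and 0.17 on the log2 scale, although Grk2 did not pass once library size was a covariate (adjusted p = 0.258). Of 14 tested chaperones and other regulators 3 rose and 0 fell, a share of 21.4% against the same 49.9% (median 0.05). Ric8a, a chaperone of nascent alpha subunits of several classes, had the smallest adjusted p of these and averaged 133 CPM with forskolin and 103 CPM with vehicle (log2 fold change 0.37). Ccdc88a, which encodes a Gi activator, rose by 0.48. Gpsm3 rose by 0.32, a call lost without forskolin C (adjusted p = 0.115), vehicle A (0.0654) or vehicle C (0.0796).

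Among 9 tested effectors of Gq and G12, 3 rose and 2 fell (median 0.03), so 55.6% were called against 49.9% of all genes. Kalrn, which encodes a guanine nucleotide exchange factor, averaged 85.3 CPM with forskolin and 112 CPM with vehicle and fell by 0.39 (edgeR adjusted p = 2.7e-05). Among 11 tested effectors of Gs, Gi and the beta-gamma dimer, 3 rose and 5 fell (median -0.35), so 72.7% were called against 49.9% of all genes. Pik3r6, an adaptor through which beta-gamma activates a phosphoinositide 3-kinase, had 2.91, 1.81 and 1.81 CPM with forskolin A, B and C, against 14.6, 13.5 and 14.3 CPM with vehicle A, B and C, and fell by 2.71 (SE 0.176, edgeR adjusted p = 4.37e-10). The catalytic subunit gene of that kinase, Pik3cg, had at most 8 counts in a library. Of the adenylyl cyclases, Adcy8 averaged 6.63 CPM with forskolin and 2.85 CPM with vehicle and rose by 1.22, and Adcy6 averaged 69.6 and 88.7 CPM and fell by 0.35 (edgeR adjusted p = 2.83e-05 and 6.22e-05).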

How the data were processed

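Polyadenylated RNA of 3 forskolin and 3 vehicle libraries was sequenced, per the labels. The authors deposited 1 table of estimated counts per gene (the kind called expected counts), summed over exons and not normalized, with the exon length of 1 RefSeq transcript per symbol. STAR, HOMER and build mm10 are named in the submitters' processing notes, and neither their versions nor their settings were found. Values come in steps of 0.5, and 31.8% are not whole, so they were rounded (0.5 to the even number). Depth is the column total, 10890193 to 15090262.5, and counting intervals cover counting error only.

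With edgeR 4.0.16 (R 4.3.3), the filter was filterByExpr at a minimum count of 10 and a minimum total of 15, and genes that passed were scaled by TMM and compared across all 13357 genes with glmQLFit and glmQLFTest, group being the only term. P-values are two-sided and Benjamini-Hochberg adjusted over all genes tested, with a threshold of 0.05. The SE comes from the F statistic. CPM are the rounded counts over the TMM-scaled library size. On simulated counts the fit missed some changed genes of low count and fell short of the recovery criterion first set, which was then replaced by one on better counted genes, while the fit was left as it was. Alternatives used DESeq2 1.42.0, limma 3.58.1 (voom), other scaling, filters and rounding, a replicate block, library size as a covariate and leaving out each library.

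The members and lists were chosen with earlier results of these data known. The rule for named genes took the 12 called members with the largest change and at least 2 CPM in a group, 16 members set by name, and up to 3 genes with the smallest p from each list. Other members are named to account for all 54. Shared 50-base stretches and exon overlaps come from GENCODE M21 on GRCm38. Of 54 members 9 had under 90% unique stretches. Results for 2 genes of the Gq and G12 effector list that the rule names, both higher with forskolin, are not reported here.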

Additional observations from a re-analysis of the deposited data

How the results depend on the processing

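For the 23 members named by rule, 14 alternative settings gave 322 log2 fold changes, of which 295 kept their direction and their side of the threshold, 12 lost the call, 8 gained one and 7 changed sign, all 7 in members that were not called. Gna14, Rgs2, Rgs4, Rgs3, Rgs12, Rgs16, Rgs19, Gnai1, Gnaq and Gng12 kept both under all 14, with log2 fold changes of 2.79 to 3.004 for Gna14 and 2.66 to 3.02 for Rgs2. With library size as a covariate 4297 genes passed, 1998 of them higher, together with 12 members, and Gnas (-0.032), Gnai3 (-0.052), Gnb1 (-0.054) and Gng5 (-0.054) changed sign. With library size alone 8 members were higher. Tested against 1.5-fold, a test added once the data had been seen, 1000 genes passed (422 higher, 578 lower) and 7 members (2 higher, 5 lower). With the short motif in place of the full motif, 11 members had a match. Leaving out each library in turn gave 13 to 19 called members (4 to 6 higher, 8 to 13 lower) and 5640 to 6799 called genes, and the log2 fold change ranged from -0.0098 to 0.046 for Gnai3 and from -0.013 to 0.032 for Gng5. The cause of these changes was not tested.

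The letters A, B and C are shared by the groups, but same-letter libraries deviated together with correlations of only 0.0318, 0.0237 and 0.0342, so the letters were not taken as pairs, although every library correlated best with its own letter. With the replicate block 18 members and 6675 genes passed in place of 16 and 6668, the added members being Gnai2 (adjusted p = 0.0271) and Gna13 (0.032). With no filter on low counts Gng4 and Gnaz passed as well. At the depth of these libraries 19 members had too few counts to be tested. Whether low depth or low expression accounts for that was not tested.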
